A study of Mus musculus with 16 samples.

Results

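The comparison is between mouse ovarian follicles cultured for 24 h and for 12 h with anti-Müllerian hormone (AMH), and it was made over 4 arrays at each time. These 8 arrays, chosen by the treatment and time in their titles, are 8 of the 16 in the series. Each array held RNA of 6 to 9 follicles, between the preantral and the small antral stage, dissected from ovaries of C57BL/6Tac females. The sample labels give an age of 8 weeks and the design text a range of 6 to 8 weeks. Each experiment drew its follicles from a pool of 8 mice. Over the series, follicles went into drops of medium with 50 ng/ml recombinant AMH or with no AMH. Culture lasted 24 h or 12 h, with 4 arrays for each treatment and time. All 4 groups had gonadotropins in the medium, follicle-stimulating hormone (FSH) at 80 IU/L and luteinizing hormone (LH) at 10 IU/L, so a change with time is a change under both hormones. Uncultured follicles were not analysed here. Each array is a mixture of the oocyte, granulosa, theca and any adhering cells, in which fewer cells of a type and less RNA per cell cannot be told apart. The labels pair an AMH array with a control array of the same pool, but not 24 h arrays with 12 h arrays, so the times were compared unpaired. That the arrays came from separate pools is stated only as far as each experiment pooled its mice. The limma p values therefore rest on the spread between arrays within groups, which the fit pooled over all 16, controls included.

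AMH is a hormone of the TGF-β family made by granulosa cells of growing follicles. It acts through the receptor Amhr2 and the SMAD proteins that BMP receptors also use, and it is known for restraining the recruitment of follicles and their response to FSH. FSH drives granulosa cells to proliferate, to take up their mature identity and to make oestradiol, from androgens that theca cells supply. LH sets off a brief ovulatory programme of EGF-like ligands, early transcription factors and matrix genes, by which the cells around the oocyte build a hyaluronan coat.

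The values were MAS5 signals, and changes are differences of mean log2(signal + 1.46) between 24 h and 12 h, on which scale the changes of dim genes are understated. The 12172 genes over a signal filter were tested together with limma, and a gene is called where its p, adjusted by the Benjamini-Hochberg method over all of them, is under 0.05. The median signal of an array lay between 27.9 and 36 at 24 h and between 30.5 and 32.1 at 12 h (exact permutation test, two-sided, p = 0.714, where 0.0286 is the smallest p that 4 against 4 arrays allow). The 3'/5' ratio of the Gapdh control probe sets, a sign of RNA quality, was 1.37 to 1.82 at 24 h and 1.43 to 1.95 at 12 h (exact permutation p = 0.943). Log2 signals correlated at 0.940 to 0.974 between AMH arrays at 24 h, at 0.944 to 0.974 between those at 12 h, and at 0.913 to 0.948 across the times. Granulosa genes such as Inha, the inhibin alpha subunit, were bright in all 8 arrays, as the tissue label says. Of the AMH arrays, 24 h replicate 1 stood apart in oocyte transcripts: the summed signal of 29 measured oocyte genes was 16026, 5428, 6470.2 and 6756 at 24 h, against 8553, 9525, 11050.1 and 8279.7 at 12 h, with replicates in order from 1 to 4. Precision is limited by the number of arrays, 4 to a group.

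At 24 h with AMH, follicles held less of several transcripts of the cumulus matrix, of EGF-like and immediate-early signalling and of mitosis than at 12 h, and more of several transcripts of granulosa cell identity and stroma. Of 12172 genes, 1008 were called (8.28%), with 528 higher at 24 h (4.34%) and 480 lower (3.94%). The median change was 0.94 among genes called higher and -0.70 among those called lower, and -0.02 over all genes tested. Changes of at least 1 on the log2 scale were reached by 374 of the called genes, and changes of at least 2 by 39 higher and 29 lower genes. The 4 signals at 24 h did not overlap the 4 at 12 h for 890 of the called genes, and over all genes the groups did not overlap for 15.1%. Other probe sets of the called genes pointed the same way in 868 of 923 cases, and none was called in the opposite direction. An unadjusted p under 0.05 was found for 2904 genes.

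**Figure D1:**
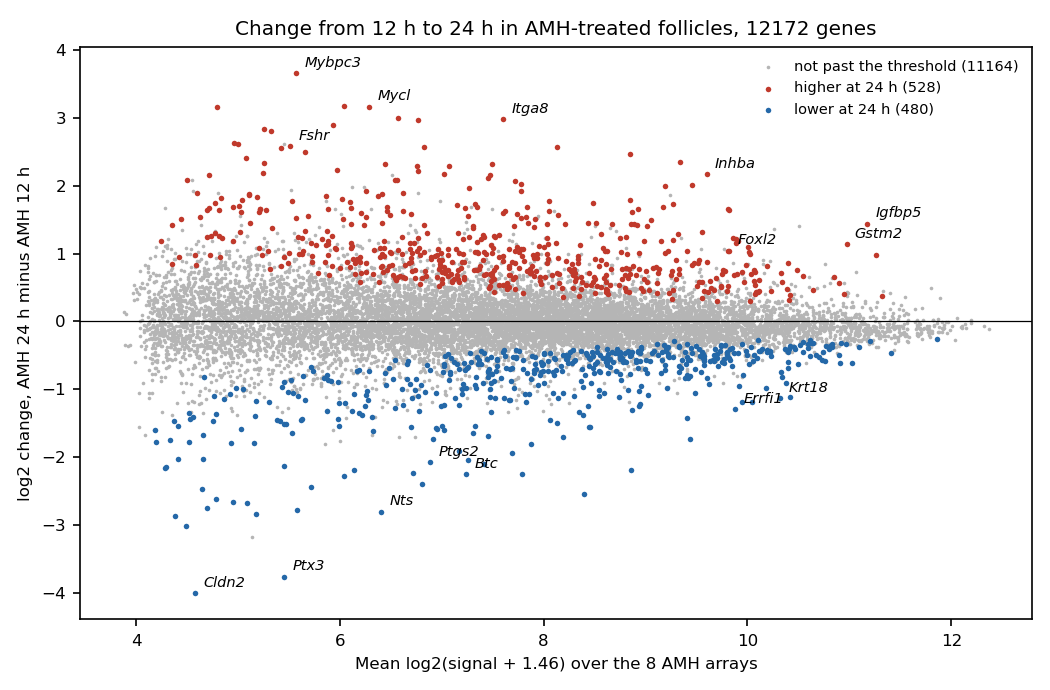
Each point is 1 of the 12172 genes, with its mean log2(signal + 1.46) over the 8 AMH arrays on the horizontal axis and its log2 change, AMH 24 h minus AMH 12 h, on the vertical axis. The 528 genes called higher (red) reach a change of 3.66 (Mybpc3) and the 480 called lower (blue) a change of -4.00 (Cldn2), while 11164 genes (grey) did not pass.

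The number of calls depended on single arrays. It was 516 without AMH 12 h replicate 3, 588 without AMH 24 h replicate 2 and 630 without AMH 12 h replicate 4, and 422 genes, 234 higher and 188 lower, were called in the full fit and in all 8 fits that each left out 1 array. Of the genes called higher, 32 had a 12 h mean under the level of the signal filter, and of those called lower, 27 had a 24 h mean under it, so their changes rest on dim signals on that side.

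Proteins of muscle, membranes and matrix were among the 15 largest rises of called genes whose groups did not overlap. The 15 largest falls were picked by the same rule. Being called and lack of overlap were thus conditions of both lists and add nothing for their genes. Mybpc3, which encodes a myosin-binding protein of the contractile filaments of heart muscle, had signals of 389, 122, 158 and 105 in AMH-treated follicles at 24 h, against 22.6, 8.85, 11.8 and 8.27 at 12 h, in the order of replicates 1 to 4 that is kept throughout. All 4 values at 24 h lay above all 4 at 12 h, which were near the floor of the array. The change was 3.66 (SE 0.49, adjusted p = 0.000436), against a 12 h mean below the filter level. Cmtm1 and Cmtm2a, members of the family of chemokine-like proteins with a MARVEL membrane domain, had the smallest SEs among the 15 largest rises. Cmtm1 signals were 265, 117, 171 and 283 at 24 h, against 27.4, 23.7, 11.8 and 22.3 at 12 h, and Cmtm2a signals were 165, 133, 157 and 215 at 24 h, against 30.5, 16.5, 21.8 and 17.0 at 12 h. Neither gene's groups overlapped, and the changes were 3.18 (SE 0.28, adjusted p = 9.07e-06) for Cmtm1 and 2.90 (SE 0.24, adjusted p = 6.34e-06) for Cmtm2a.

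Mycl, a transcription factor of the MYC family, had signals of 945, 188, 373 and 43.1 at 24 h, against 27.4, 29.1, 21.9 and 21.0 at 12 h. The 24 h arrays differed far more among themselves than the 12 h arrays did, yet even the lowest exceeded them all, and Mycl rose by 3.17 (SE 0.74, adjusted p = 0.0157). Itga8, an integrin subunit, was tighter, with 624, 444, 589.6 and 538 at 24 h, against 48.1, 59.0, 72.9 and 99.8 at 12 h, and a change of 2.99 (SE 0.30, adjusted p = 3.99e-05). Slc26a7, an anion transporter, had signals of 465, 342, 305 and 174 at 24 h, against 37.1, 85.3, 20.2 and 30.0 at 12 h, and rose by 2.97 (SE 0.42, adjusted p = 0.000697). Its groups did not overlap.

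The rest of the 15 largest rises without overlap lay between 2.50 and 2.99. Ihh, called with a change of 2.84, is not among them because its groups overlapped. Dpt, which encodes the matrix protein dermatopontin, had signals of 224, 281, 237 and 336 at 24 h, against 32.3, 23.7, 38.1 and 36.6 at 12 h, with no overlap and a change of 2.99 (SE 0.29, adjusted p = 2.46e-05). Car3, a carbonic anhydrase, changed by 2.64 (SE 0.56), and its 4 signals at 24 h ran from 17.1 to 176, with replicate 4 the lowest and only just above the 12 h arrays. Islr, a secreted or membrane protein with immunoglobulin and leucine-rich repeats, rose by 2.57 (SE 0.37). Nap1l5, an imprinted gene related to nucleosome assembly proteins, rose by 2.58 (SE 0.64), with 250 in replicate 4 against 649 to 1224 in the other 24 h arrays, and its call ended without AMH 24 h replicate 1 or 3 or AMH 12 h replicate 3 (adjusted p = 0.057 to 0.0728). Tbata, Gm4926 and Rassf2 rose by 2.56, 2.80 and 2.50, and the 12 h means of Tbata and Gm4926 were below the filter level.

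**Figure D2:**
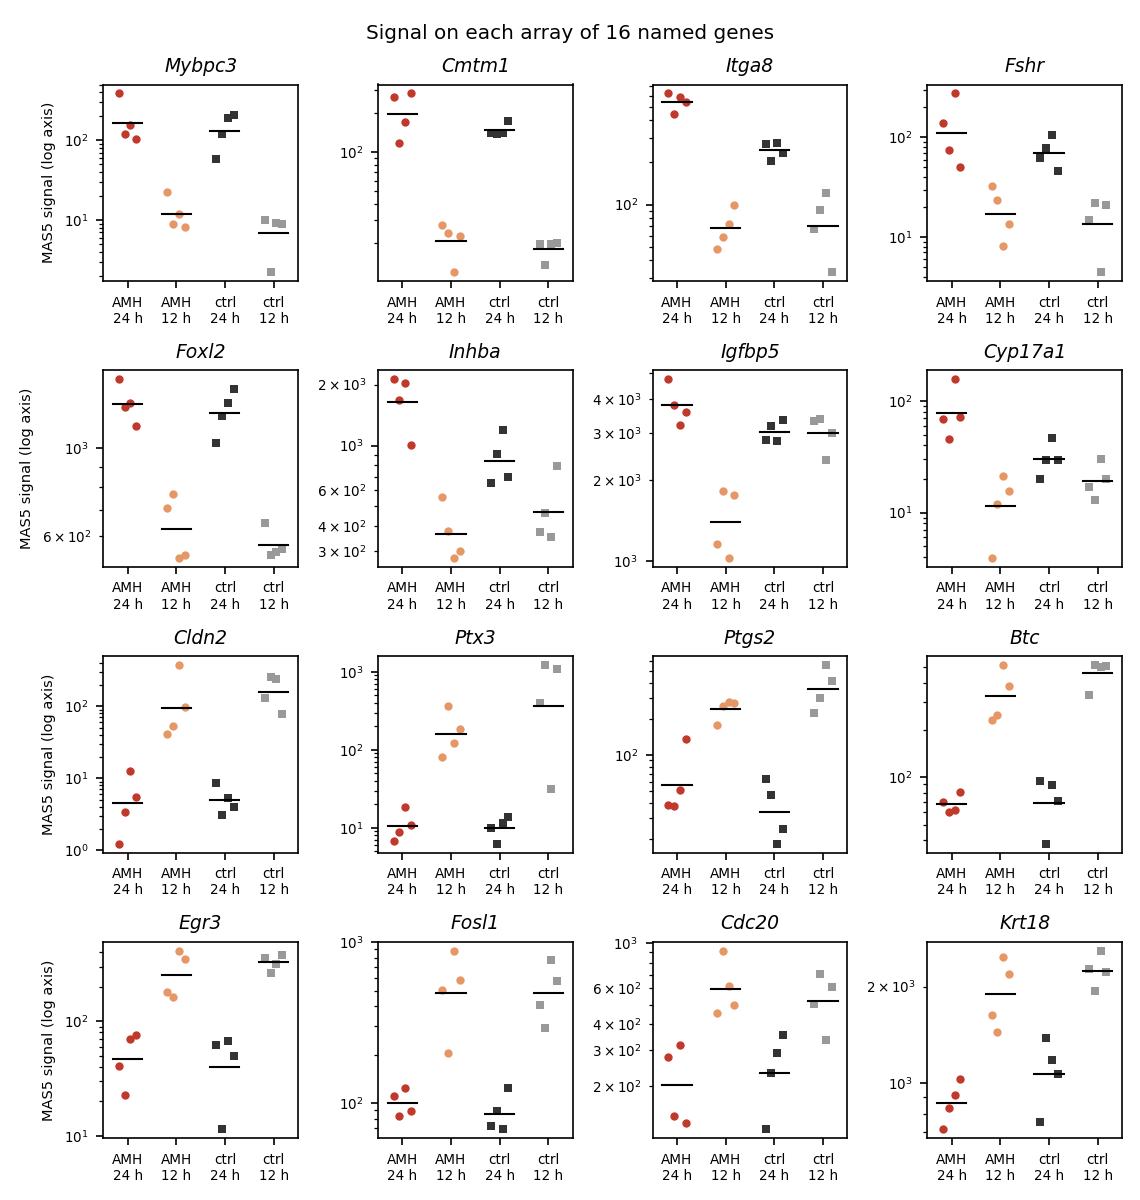
Each panel gives the MAS5 signal (log axis) of a gene on every array, in the order AMH 24 h, AMH 12 h, control 24 h and control 12 h, with 4 points per group and a line at the back-transformed mean of the log2 values. For Mybpc3, Cmtm1 and Itga8 all 4 AMH arrays at 24 h lie above those at 12 h, and for Cldn2, Ptx3, Btc and Egr3 all 4 lie below them.

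Cldn2 had the largest fall of the called genes in the fit with all arrays. It encodes a claudin that forms ion pores in tight junctions, and its signals were 1.24, 3.41, 12.6 and 5.44 in AMH-treated follicles at 24 h, against 40.6, 52.5, 374 and 97.9 at 12 h. Every 24 h value was below every 12 h value, and the 24 h values were near the floor. The change was -4.00 (SE 0.62, adjusted p = 0.00113), and since the 24 h signals are near the floor it is given with no fold. Nmu, which encodes the neuropeptide neuromedin U, had 6.45, 2.65, 10.5 and 8.44 at 24 h, against 57.0, 75.3, 62.4 and 55.5 at 12 h, and changed by -3.01 (SE 0.38, adjusted p = 0.000317). Slc7a3, a transporter of cationic amino acids, had the smallest SE among the 15 largest falls, with signals of 11.0, 20.8, 15.3 and 22.5 at 24 h, against 123, 114, 141 and 118 at 12 h, and a change of -2.77 (SE 0.24, adjusted p = 9.07e-06). In each of these 3 genes the groups were apart, which was a condition for the 15 largest falls.

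Crhbp, the binding protein of corticotropin-releasing hormone, had a change of -2.87 (SE 0.53), the milk protein gene Csn3 of -2.66 (SE 0.49), the helicase gene Pif1 of -2.62 (SE 0.46), and Krtdap and Sprr1a, known from differentiating keratinocytes, of -2.47 (SE 0.36) and -2.55 (SE 0.55). All of these were called by limma, and none of their groups overlapped. Sprr1a was bright at both times, with signals of 77.6, 78.3, 165 and 352 at 24 h, against 435, 824, 1306 and 929.7 at 12 h, while the other 4 had 24 h means under the filter level. The beta globin gene Hbb-b2 had a change of -2.67 (SE 0.52) on dim signals, whereas the alpha globin gene Hba-a2 had a change of 0.44 (SE 0.10) on bright ones. Both globin genes have near-identical copies whose RNA their probes may also bind, so the assignment to one copy is uncertain.

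Several ovulatory matrix genes were lower at 24 h. These are the genes with which cumulus cells build and cross-link hyaluronan around the oocyte. Of 11 measured members, 5 were called lower (45.5%) and 0 higher, beside 3.94% and 4.34% over all genes, and the median change was -0.53 (-0.81 without AMH 12 h replicate 1). Ptx3, the pentraxin that links the hyaluronan matrix, had signals of 6.74, 8.72, 18.3 and 10.8 at 24 h, against 80.9, 365, 121 and 183 at 12 h. The 24 h arrays were all near the floor and the 12 h arrays all above 80, and Ptx3 fell by 3.76 (SE 0.82, adjusted p = 0.0101).

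Ptgs2, the inducible enzyme of prostaglandin synthesis, had signals of 38.3, 37.6, 50.9 and 135 at 24 h, against 178, 255, 273 and 272 at 12 h. AMH 24 h replicate 4 was the highest of its group but below all 12 h arrays, and the change was -2.07 (SE 0.41, adjusted p = 0.00614). Tnfaip6, which transfers heavy chains onto hyaluronan, had signals of 16.6, 33.9, 49.96 and 34.3 at 24 h, against 87.6, 131, 135 and 317 at 12 h, and fell by 2.19 (SE 0.47, adjusted p = 0.00859). Cd44, a hyaluronan receptor, fell by 1.93 (SE 0.29, adjusted p = 0.000962), with 74.6, 94.6, 151 and 111 at 24 h, against 336, 286, 590.3 and 461 at 12 h. Has2, the hyaluronan synthase, changed by -1.51 (SE 0.42, adjusted p = 0.0371). The groups of Ptgs2, Tnfaip6 and Cd44 did not overlap. The 6 other measured members did not pass, and over the fits that each left out 1 array 4 or 5 members were called.

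Some EGF-like ligands and feedback genes of the ERK pathway were lower as well. Of 18 measured, 6 were called lower (33.3%) and 0 higher, with a median of -0.34 and 16 below 0. The median was -0.62 without AMH 12 h replicate 2 and -0.18 without AMH 12 h replicate 3. Btc, the ligand betacellulin, had signals of 69.2, 60.2, 62.0 and 81.1 at 24 h, against 232, 251, 519 and 382 at 12 h, with the 24 h arrays close together and far below the 12 h arrays, and fell by 2.25 (SE 0.28, adjusted p = 0.000264). Ereg, the ligand epiregulin, changed by -1.81 (SE 0.49, adjusted p = 0.0305), while Areg was not over the signal filter. Among the feedback inhibitors, Errfi1, which blocks the EGF receptor, had signals of 588, 585, 642 and 592 at 24 h, against 1328, 1093, 1918 and 1689 at 12 h. Its groups were apart, and it fell by 1.29 (SE 0.17, adjusted p = 0.000436). The ERK phosphatase gene Dusp4 fell by 1.05 (SE 0.24, adjusted p = 0.0143) and the Sprouty-related gene Spred2 fell by 0.68 (SE 0.16, adjusted p = 0.0171). The Dusp4 call ended without AMH 24 h replicate 2 or AMH 12 h replicate 3 (adjusted p = 0.0512 to 0.0552) and the Spred2 call without AMH 24 h replicate 2 or AMH 12 h replicate 3 (adjusted p = 0.0581 to 0.0633). In the list as a whole 2 members were called without AMH 24 h replicate 2 or AMH 12 h replicate 3, and up to 7 in the other fits with 1 array left out.

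Immediate-early genes, the transcription factors and regulators that a growth or hormone signal switches on without new protein synthesis, had changes below 0 in 24 of 25 measured cases, with a median of -0.72. Of these 10 were called lower (40%) and 0 higher. Fosl1, a subunit of AP-1, had signals of 110.2, 83.2, 123 and 89.5 at 24 h, against 503, 206, 884 and 584 at 12 h. Its 24 h values lay within a narrow band below all 12 h values, and it fell by 2.25 (SE 0.36, adjusted p = 0.00165). Egr3, a zinc-finger factor, had signals of 40.8, 22.7, 70.7 and 75.3 at 24 h, against 180.3, 165, 414 and 350.2 at 12 h, and fell by 2.40 (SE 0.48, adjusted p = 0.00614). Maff, a small MAF factor, had 231, 289.9, 452 and 357 at 24 h, against 797, 601, 882 and 743 at 12 h, and fell by 1.21 (SE 0.20, adjusted p = 0.00173), and Ier5 fell by 1.24 (SE 0.21, adjusted p = 0.00229). None of these 4 overlapped between the times. Fos, the best known member, stood at -1.13 (SE 0.37, adjusted p = 0.0668). Depending on which array was left out, 4 to 9 members were called, with 4 without AMH 24 h replicate 1 or 3, 5 without AMH 24 h replicate 2 or AMH 12 h replicate 1, and 6 without AMH 12 h replicate 3 or 4.

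The promoters of Errfi1 and Maff are shown because, of the 13 genes with a promoter window among those called lower in the immediate-early, EGF-like and cumulus matrix lists, they are the 2 (15.4%) that hold the cAMP response element TGACGTCA, searched on both strands. The windows run from 250 bases before to 50 after the start, from RefSeq on build GRCm38.p6, and the capitals mark the element. Errfi1 has 2 windows and Maff 3, and the first that holds the element is shown for each. The Errfi1 window shown lies at chr4:150854820-150855119, plus strand, with the element 51 bases before its start. The Maff window shown lies at chr15:79347270-79347569, plus strand, with the element 29 bases before its start.
Errfi1: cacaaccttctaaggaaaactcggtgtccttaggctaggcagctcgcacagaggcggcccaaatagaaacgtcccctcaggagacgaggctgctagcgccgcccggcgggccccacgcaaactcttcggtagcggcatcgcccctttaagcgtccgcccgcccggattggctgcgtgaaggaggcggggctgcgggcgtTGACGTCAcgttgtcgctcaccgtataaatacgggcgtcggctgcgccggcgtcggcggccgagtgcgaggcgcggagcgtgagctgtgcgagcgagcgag
Maff: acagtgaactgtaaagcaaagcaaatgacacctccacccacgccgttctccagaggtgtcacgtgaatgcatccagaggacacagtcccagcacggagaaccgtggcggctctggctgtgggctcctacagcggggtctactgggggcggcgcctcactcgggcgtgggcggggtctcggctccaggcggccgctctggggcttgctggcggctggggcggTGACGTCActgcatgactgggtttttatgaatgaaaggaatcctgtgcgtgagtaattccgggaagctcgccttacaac
The same letters stand in 2.03% of the 27025 genes with a window and in 3.49% of the tested genes with one. Among all genes called lower the share was 3.03%.

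Cytokine and neuropeptide genes held some of the deepest falls. Of 16 measured cytokine and chemokine genes, 4 were called lower (25.0%) and 1 higher (6.25%), and without AMH 12 h replicate 3 there were 2 called lower. Il33, an alarmin cytokine, had signals of 6.26, 13.7, 23.0 and 10.1 at 24 h, against 31.7, 95.1, 245 and 109 at 12 h, and Il11, a cytokine of the gp130 family, had 7.86, 4.73, 9.37 and 14.6 at 24 h, against 26, 22.6, 205 and 148 at 12 h. The change was -2.84 (SE 0.54, adjusted p = 0.00455) for Il33 and -2.75 (SE 0.72, adjusted p = 0.0279) for Il11, whose groups did not overlap either but whose call ended without AMH 24 h replicate 1, 2 or 3 or AMH 12 h replicate 3 or 4 (adjusted p = 0.0537 to 0.0968). Socs3, the feedback inhibitor of cytokine receptors, had signals of 125, 177, 244 and 318 at 24 h, against 627, 557, 639 and 574 at 12 h, clear of overlap, and fell by 1.55 (SE 0.25, adjusted p = 0.00170). The receptor gene Tnfrsf12a fell by 0.98 (SE 0.22), and its groups overlapped because AMH 12 h replicate 2 was low. Its call ended without AMH 12 h replicate 3 (adjusted p = 0.0523). Cxcl12, the chemokine of stromal cells, went the other way, with 258, 401, 339 and 161 at 24 h, against 26.7, 63.8, 78.5 and 92.3 at 12 h, and a change of 2.18 (SE 0.43, adjusted p = 0.00604). Of 12 measured neuropeptide and endothelin genes only Nts was called (8.33%, lower). Nts encodes neurotensin, and its signals were 22.8, 29.1, 39.9 and 33.0 at 24 h, against 92.6, 415, 332 and 190.3 at 12 h, with a change of -2.80 (SE 0.42, adjusted p = 0.000962). Nppc, the C-type natriuretic peptide of mural granulosa cells that keeps the oocyte in meiotic arrest, stood at 1.30 (SE 0.40, adjusted p = 0.0538), with AMH 24 h replicate 4 at 60.4 within the range of the 12 h arrays.

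All 37 measured mitosis genes were below 0, with a median change of -1.01, and 8 were called lower (21.6%) and 0 higher. Cdc20, the activator of the anaphase-promoting complex, had signals of 276, 143, 317 and 132 at 24 h, against 453, 916, 616 and 498 at 12 h. The groups were apart, although AMH 24 h replicates 1 and 3 lay well above replicates 2 and 4, and Cdc20 fell by 1.56 (SE 0.35, adjusted p = 0.0116). Cdc25c, the phosphatase that switches on the mitotic kinase, had 45.8, 22.7, 17.1 and 10.6 at 24 h, against 92.2, 264, 91.8 and 94.8 at 12 h, and fell by 2.44 (SE 0.58, adjusted p = 0.0171), and its call ended without AMH 24 h replicate 4 (adjusted p = 0.0551). Ect2, which places the cleavage furrow, fell by 1.11 (SE 0.28, adjusted p = 0.0214), with a call that ended without AMH 24 h replicate 2 or 4 or AMH 12 h replicate 3 (adjusted p = 0.0598 to 0.0688). Cenpe, a motor at the kinetochore, had signals of 130.3, 27.4, 72.7 and 45.0 at 24 h, against 169.5, 264, 171 and 126 at 12 h, and a change of -1.56 (SE 0.43, adjusted p = 0.0325). Its groups overlapped through AMH 24 h replicate 1, and its call ended without AMH 24 h replicate 2 or 4 or AMH 12 h replicate 1, 2 or 3 (adjusted p = 0.0555 to 0.104).

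The other mitosis genes called were Ube2c, Kif2c, Kif20a and Nusap1, of which Ube2c, the ubiquitin-conjugating enzyme of the anaphase-promoting complex, changed by -1.18 (SE 0.33) and the kinesin Kif2c by -1.54 (SE 0.43). The summed signal of the 37 genes was 9425, 4662, 6326 and 3885 at 24 h, against 9076, 17814, 11662 and 10062 at 12 h. AMH 24 h replicate 1, the array rich in oocyte transcripts, was the highest of the 24 h arrays and lay within the range of the 12 h arrays. Oocytes also hold such transcripts, and whether oocyte RNA raised the mitosis sum of this array was not tested. With the oocyte mean as a covariate 9 members were called and the median was -0.97, and without AMH 24 h replicate 1 there were 17 called with a median of -1.27. Without AMH 24 h replicate 4 there was 1, and without AMH 24 h replicate 2 or AMH 12 h replicate 3 there were 2. Leaving out AMH 12 h replicate 2 gave 3, and leaving out AMH 24 h replicate 3 or AMH 12 h replicate 4 gave 5, while the median stayed between -1.27 and -0.85 over the 8 fits. DNA replication genes had a median of -0.29 (-0.45 without AMH 24 h replicate 1 and -0.14 without AMH 24 h replicate 4), with 29 of 35 below 0 and 1 called (2.86%, lower), the clamp loader subunit Rfc4 with -0.77 (SE 0.19). The Rfc4 call ended without AMH 24 h replicate 2 or 4 or AMH 12 h replicate 3 (adjusted p = 0.0553 to 0.064).

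Promoters of the mitosis genes Cdc20 and Ube2c are shown as examples of a shared element. The cell cycle genes homology region, TTTGAA on either strand, stood in 24 of the 31 mitosis genes with a window (77.4%), beside 20.2% of all genes with a window and 14.0% of the tested ones, and in 4 of the 6 that were called and have a window. The capitals mark the element. In Cdc20, at chr4:118437294-118437593, minus strand, it begins 18 bases before the start, and in Ube2c, at chr2:164769679-164769978, plus strand, 29 bases before it, read there on the opposite strand. Build and source are as above.
Cdc20: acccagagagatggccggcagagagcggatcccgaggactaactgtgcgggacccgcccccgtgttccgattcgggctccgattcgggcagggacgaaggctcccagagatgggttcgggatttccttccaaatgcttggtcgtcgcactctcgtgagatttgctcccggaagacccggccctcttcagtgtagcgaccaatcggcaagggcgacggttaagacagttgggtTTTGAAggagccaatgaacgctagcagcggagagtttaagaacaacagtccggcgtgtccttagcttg
Ube2c: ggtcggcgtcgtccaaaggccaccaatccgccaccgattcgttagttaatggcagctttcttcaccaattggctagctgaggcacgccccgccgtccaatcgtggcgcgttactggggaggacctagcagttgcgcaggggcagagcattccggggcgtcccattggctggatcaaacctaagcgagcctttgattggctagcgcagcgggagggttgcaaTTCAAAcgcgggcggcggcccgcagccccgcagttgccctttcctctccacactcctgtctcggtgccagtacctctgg
Over all genes called lower the share with the element was 14.3%, near that of the tested genes. The CCAAT box, also searched, stood in 24 of the 31 as well (77.4%), beside 43.1% of the tested genes. Of the other elements searched, the cAMP response element stood in 2 of the 31 and E2F letters (TTTCGCGC) in 1. AP-1 letters (TGANTCA) and those of the sterol regulatory element (TCACNCCAC) stood in 0.

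Some stress and amino acid genes fell. Of 29 measured genes of the unfolded protein and amino acid response, 7 were called lower (24.1%) and 0 higher, and the median was -0.28. Without AMH 24 h replicate 4 there were 4 called lower, and without AMH 12 h replicate 3 there were 3. Slc7a1, an importer of cationic amino acids, had signals of 674, 839, 758 and 747 at 24 h, against 1417, 1373, 1203 and 1242 at 12 h, with tight and separate groups, and fell by 0.79 (SE 0.12, adjusted p = 0.000981). Phgdh, the entry enzyme of serine synthesis, fell by 1.18 (SE 0.21, adjusted p = 0.00289), and Asns, asparagine synthetase, fell by 0.96 (SE 0.20, adjusted p = 0.00748). Psat1, the next enzyme of serine synthesis, fell by 0.83 (SE 0.20, adjusted p = 0.0158), a call that ended without AMH 24 h replicate 2 or AMH 12 h replicate 3 (adjusted p = 0.0556 to 0.0585). The factors Atf4 and Atf5, which control this response, were also among those called, with changes of -0.50 (SE 0.13) and -0.65 (SE 0.18). Mthfd2, of mitochondrial one-carbon metabolism, was the seventh, and Hspa5, the main chaperone of the endoplasmic reticulum, was not called.

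In the list of p53 targets and apoptosis regulators 3 of 23 were called lower (13.0%). Gadd45b, a stress sensor, fell by 1.13 (SE 0.19, adjusted p = 0.00198), Mdm2, the ubiquitin ligase of p53, fell by 0.60 (SE 0.12, adjusted p = 0.00666), and Phlda1 fell by 1.24 (SE 0.29, adjusted p = 0.0164), which was not called without AMH 12 h replicate 3 or 4 (adjusted p = 0.051 to 0.0607). The antioxidant list was split, with 3 of 25 called higher (12.0%) and 5 lower (20%), and 3 were called lower without AMH 24 h replicate 1, 2 or 4 or without any 1 of AMH 12 h replicates 1, 3 and 4. Sod3, the extracellular superoxide dismutase, had signals of 467, 355, 526 and 439.8 at 24 h, against 85.1, 104, 112 and 133 at 12 h, and rose by 2.03 (SE 0.17, adjusted p = 6.34e-06), with no overlap. The glutathione transferases Gstm1 and Gstm2, whose sequences are alike enough that probes may not keep them apart, rose by 0.98 (SE 0.12) and 1.14 (SE 0.13). Gstm2 signals were 3834, 3000.0, 2675 and 2576 at 24 h, against 1329, 1558, 1420.1 and 1130.0 at 12 h. Srxn1, which repairs oxidised peroxiredoxins, fell by 1.05 (SE 0.19, adjusted p = 0.00329), and Gsr, Gclm, Nqo1 and Txn1 were the other 4 called lower. The list thus moved in no single direction, and the cause of the split was not tested.

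Heat-shock proteins and chaperones had a median of -0.22, with 1 of 24 called (4.17%, lower), the chaperonin subunit Cct5 with -0.33 (SE 0.09). Ribosome biogenesis genes had a median of -0.30, with 27 of 32 below 0 and 1 called (3.12%, lower), the nucleolar gene Gnl3 with -0.68 (SE 0.17). Both shares are near the 3.94% called lower over all genes, but 4 ribosome biogenesis genes were called lower without AMH 24 h replicate 1 and 3 without AMH 12 h replicate 2. The Cct5 call ended without AMH 24 h replicate 2, 3 or 4 or AMH 12 h replicate 2, 3 or 4 (adjusted p = 0.0534 to 0.0788), and the Gnl3 call without AMH 24 h replicate 2 or 4 or AMH 12 h replicate 3 (adjusted p = 0.0619 to 0.0698).

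Several genes of granulosa identity and FSH response were higher at 24 h. Of 23 measured, 8 were called higher (34.8%) and 1 lower (4.35%), with a median of 0.73 and 20 above 0. Foxl2, the transcription factor that keeps the granulosa fate, had signals of 1494, 1271, 1305 and 1138 at 24 h, against 708, 768, 529.5 and 538 at 12 h. Its groups were narrow and apart, and it rose by 1.04 (SE 0.13, adjusted p = 0.000324). Fshr, the FSH receptor, had signals of 139, 74.1, 277 and 50.7 at 24 h, against 32.8, 23.4, 8.09 and 13.4 at 12 h. The 24 h arrays spread over a wide range, all above the 12 h arrays, and the change was 2.58 (SE 0.53, adjusted p = 0.00773). Slc18a2, a vesicular monoamine transporter, rose by 1.99 (SE 0.33, adjusted p = 0.00198), and Bmpr1b, a type I BMP receptor of granulosa cells, by 1.29 (SE 0.24, adjusted p = 0.00369), with 591, 575, 559 and 642 at 24 h, against 378, 262, 179 and 189.6 at 12 h. Neither overlapped.

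Esr2, the oestrogen receptor of granulosa cells, had signals of 299, 158, 177 and 147 at 24 h, against 97.3, 67.6, 19.9 and 45.0 at 12 h, with AMH 12 h replicate 3 the lowest, and rose by 1.89 (SE 0.39, adjusted p = 0.00772). It was also the only 1 of 19 measured ovulatory and luteinizing transcription factors to be called (5.26%). Hsd17b1, the enzyme that makes oestradiol from oestrone, had 2387, 1470.0, 1876 and 966 at 24 h, against 721, 934, 214 and 463 at 12 h, and a change of 1.64 (SE 0.49, adjusted p = 0.0474). Its groups were apart by a small margin, and the call ended without AMH 24 h replicate 1, 2 or 3 or AMH 12 h replicate 1, 3 or 4 (adjusted p = 0.0513 to 0.152). Hmga2, a chromatin protein of proliferating cells, was the member called lower, with -1.09 (SE 0.31, adjusted p = 0.0389). Its call ended without AMH 24 h replicate 2, 3 or 4 or AMH 12 h replicate 3 or 4, where no member was called lower. With 1 array left out, 6 to 9 members of the granulosa list were called higher. The growth genes Kitl, the KIT ligand, with 0.37 (SE 0.17, adjusted p = 0.202), Igf1 with 0.73 (SE 0.32, adjusted p = 0.175), and the G1 cyclin Ccnd2 with 0.56 (SE 0.28, adjusted p = 0.245) did not pass.

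Of the inhibin and activin subunits, Inhba, which forms activin A and inhibin A, had signals of 2128, 1673, 2038 and 1002 at 24 h, against 555, 379, 279 and 303 at 12 h. The groups were apart, with AMH 24 h replicate 4 the lowest at 24 h, and Inhba rose by 2.17 (SE 0.29, adjusted p = 0.000453). Inha stood at 0.73 (SE 0.29, adjusted p = 0.124) on groups that did not overlap, and Inhbb at 1.36 (SE 0.65, adjusted p = 0.210) on groups that did. Fst, the activin antagonist follistatin, had signals of 1023, 457, 986 and 383 at 24 h, against 465, 421, 139 and 324 at 12 h, with a high pair and a low pair of arrays at 24 h, and a change of 1.08 (SE 0.57, adjusted p = 0.272).

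Steroid synthesis genes had a median of 0.48, with 3 of 19 called higher (15.8%) and 0 lower. There were 2 called higher without AMH 24 h replicate 1, 2 or 3 or AMH 12 h replicate 1, 3 or 4. Without AMH 12 h replicate 2 there were 5 called higher, and without AMH 24 h replicate 4 there was 1 called lower. The lowest change of the list, -3.17 for Sult1e1, was not called in the full fit. Cyp17a1, the enzyme of theca cells that makes androgens, had signals of 69.1, 45.8, 157 and 72.1 at 24 h, against 3.92, 11.8, 21.2 and 15.7 at 12 h. The groups were apart, the 12 h mean lay below the filter level, and the change was 2.61 (SE 0.44, adjusted p = 0.00205). Akr1c14, a reductase of 3-keto steroids, had 1970.1, 1521, 2028 and 1073 at 24 h, against 872, 531, 428 and 325 at 12 h, and rose by 1.66 (SE 0.27, adjusted p = 0.00165). Star, which carries cholesterol into mitochondria, had signals of 573, 1955, 1684 and 1749 at 24 h, against 729, 1171, 1980.0 and 2165 at 12 h. It was lowest in AMH 24 h replicate 1, the oocyte-rich array, and its change was -0.04 (SE 0.38, adjusted p = 0.970). Cyp11a1, the enzyme that starts steroid synthesis, was low on the same array, with 549.8, 3161, 1679 and 2039.7 at 24 h, against 330.0, 797, 1233 and 1471 at 12 h, and stood at 0.91 (SE 0.53, adjusted p = 0.324). Lhcgr, the LH receptor, and Cyp19a1, aromatase, were not tested, since no probe set with these symbols passed the filter.

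Cholesterol biosynthesis had a median of 0.12, which was 0.05 to 0.24 with 1 array left out and moved by over 1.5 times without AMH 24 h replicate 1 or any 1 of the AMH 12 h arrays, with 1 of 19 called (5.26%, higher). That gene was Tm7sf2, a sterol reductase, with 229.6, 201, 327 and 335 at 24 h, against 42.5, 155, 87.7 and 80.8 at 12 h, and a change of 1.67 (SE 0.35, adjusted p = 0.00826). Of 16 luteal genes 1 was called higher and 1 lower (6.25% each). Oxtr, the oxytocin receptor, rose by 1.86 (SE 0.46, adjusted p = 0.0200), with 12 h signals near the filter level, and the call ended without AMH 24 h replicate 2 or 3 or AMH 12 h replicate 3 (adjusted p = 0.056 to 0.0658). Timp1, an inhibitor of metalloproteinases, fell by 0.98 (SE 0.19, adjusted p = 0.00568).

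Hedgehog and theca genes were above 0 in 10 of 10 measured cases, with a median of 0.44 (0.70 without AMH 12 h replicate 4), and 3 were called higher (30.0%). Granulosa cells send the ligands Dhh and Ihh to theca precursors. Dhh had signals of 563, 283, 375 and 219 at 24 h, against 107, 173, 119.8 and 115 at 12 h, with no overlap, and rose by 1.41 (SE 0.29, adjusted p = 0.00756). Ihh had 256, 76.5, 248 and 20.2 at 24 h, against 7.58, 21.8, 12.0 and 13.2 at 12 h, and rose by 2.84 (SE 0.62, adjusted p = 0.00995) although AMH 24 h replicate 4 fell within the 12 h range, where the mean was below the filter level. The third was Tcf21, a transcription factor of mesenchymal cells, with 1.07 (SE 0.25). Ptch1, the receptor and a usual target of the pathway, stood at 0.15 (SE 0.22, adjusted p = 0.733), and the targets Gli1 and Hhip and the theca marker Insl3 were not over the filter.

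In AMH's own pathway, neither Amh nor its receptor gene was called. Amh had signals of 25.2, 3.82, 7.82 and 4.71 at 24 h, against 30.4, 27.5, 29.2 and 20.3 at 12 h, dim throughout and highest at 24 h in replicate 1, and a change of -1.56 (SE 0.47, adjusted p = 0.0520). The receptor gene Amhr2 had 1833, 1416, 1337 and 1406 at 24 h, against 1495, 1327, 635 and 761 at 12 h, and a change of 0.59 (SE 0.23, adjusted p = 0.128). Of 12 measured targets of SMAD1/5/9, the factors that AMH and BMP receptors activate, 1 was called higher and 1 lower. That is 8.33% each, beside 4.34% higher and 3.94% lower over all genes, and the median was 0.29. Id2, an inhibitor of helix-loop-helix factors, had signals of 421, 612, 636 and 618 at 24 h, against 301, 303, 212 and 288 at 12 h, apart between the times, and rose by 1.04 (SE 0.24, adjusted p = 0.0143). Its call ended without AMH 12 h replicate 3 (adjusted p = 0.0543). Id3 stood at 0.63 (SE 0.20, adjusted p = 0.0598), Id1 at -0.23 (SE 0.20, adjusted p = 0.534) and the inhibitory Smad6 at 0.20 (SE 0.27, adjusted p = 0.713). Zcchc12, a coactivator of SMADs, fell by 2.03 (SE 0.42, adjusted p = 0.00748) on dim signals.

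Of the cAMP signalling genes, through which FSH and LH act, 2 of 28 were called higher (7.14%) and 1 lower (3.57%). Pde7b, a phosphodiesterase that degrades cAMP, had 225, 290.2, 290.4 and 331 at 24 h, against 137, 81.7, 116 and 152 at 12 h, and rose by 1.24 (SE 0.21, adjusted p = 0.00225). The regulatory subunits of protein kinase A went opposite ways, with Prkar2b at 1.19 (SE 0.35, adjusted p = 0.0456) and Prkar2a at -0.69 (SE 0.18, adjusted p = 0.0235). The Prkar2b call ended without AMH 24 h replicate 1, 2, 3 or 4 or AMH 12 h replicate 3 or 4 (adjusted p = 0.0595 to 0.145), and the Prkar2a call without AMH 24 h replicate 4 or AMH 12 h replicate 3 or 4 (adjusted p = 0.0632 to 0.0799).

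**Figure D3:**
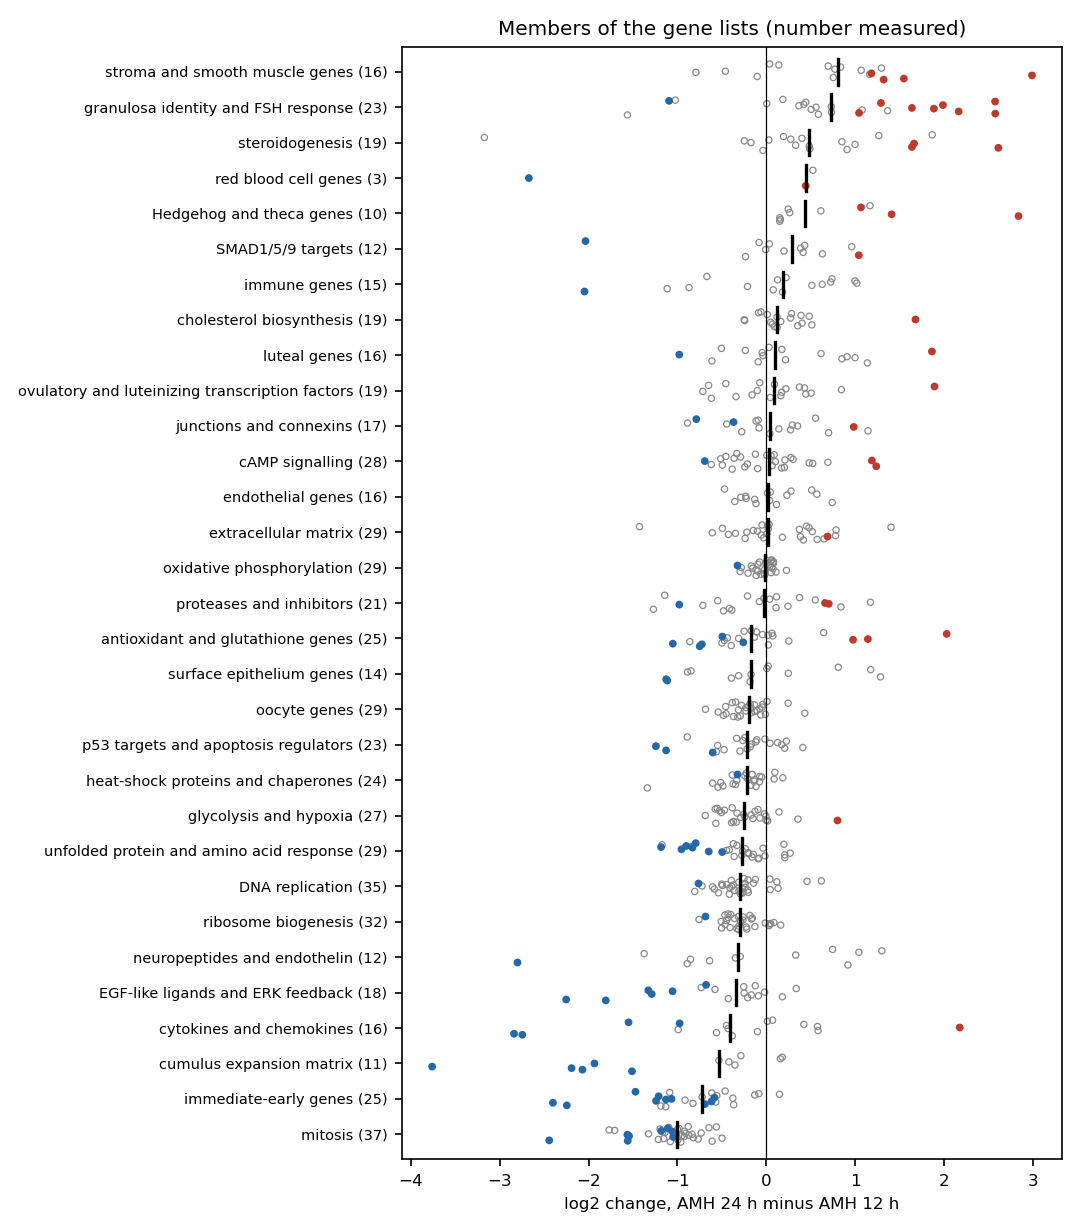
Each line is a gene list with its number of measured members in brackets, and each point a member's log2 change, AMH 24 h minus AMH 12 h, filled red where called higher, filled blue where called lower and open where not called. The black bars are medians over all 8 arrays, which run from -1.01 for mitosis to 0.80 for stroma and smooth muscle genes.

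Stroma and smooth muscle genes had a median of 0.80, with 4 of 16 called higher (25.0%), 0 lower and 13 above 0. These mark the connective tissue and theca around follicles. Besides Dpt, Dcn, the proteoglycan decorin, had signals of 1413, 1357, 1492 and 698 at 24 h, against 311, 568, 581 and 495 at 12 h, with replicate 4 the lowest at 24 h but above the 12 h arrays, and rose by 1.32 (SE 0.24, adjusted p = 0.00351). Col15a1, a collagen of basement membrane zones, rose by 1.18 (SE 0.30, adjusted p = 0.0246), and Lum, the proteoglycan lumican, by 1.55 (SE 0.46, adjusted p = 0.0489). The Col15a1 call ended without AMH 24 h replicate 1, 2 or 3 or AMH 12 h replicate 1 or 4 (adjusted p = 0.0528 to 0.075), and the Lum call without AMH 24 h replicate 1, 2 or 3 or AMH 12 h replicate 1, 2, 3 or 4 (adjusted p = 0.069 to 0.13), so that 2 members were called without AMH 24 h replicate 1, 2 or 3 or AMH 12 h replicate 4. The summed signal of the 16 genes was 6787, 7489, 8124 and 6321 at 24 h, against 4104, 3990.1, 5637 and 4691 at 12 h, and all 24 h arrays exceeded all 12 h arrays. Spon1, a secreted matrix protein outside this list, had 357, 354, 344 and 430.1 at 24 h, against 111, 143, 111 and 126 at 12 h, and rose by 1.59 (SE 0.19, adjusted p = 0.000243). Whether the stromal rise reflects more stromal cells on the 24 h arrays was not tested.

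Matrix genes in general showed less, with 1 of 29 called (3.45%, higher) and a median of 0.02 that turned to -0.0012 when arrays were centred on their medians and ran from -0.04 (without AMH 24 h replicate 2) to 0.20 (without AMH 12 h replicate 4) with 1 array left out. The gene was Col6a1, a chain of collagen VI, with 0.68 (SE 0.20), a call that ended without AMH 24 h replicate 1, 2 or 3 or AMH 12 h replicate 1, 2 or 4 (adjusted p = 0.0527 to 0.115). The protease list had 2 of 21 called higher (9.52%) and 1 lower (4.76%, Timp1), and 4 were called lower without AMH 12 h replicate 2. The metalloproteinase inhibitors Timp2 and Timp3 changed by 0.70 (SE 0.21) and 0.66 (SE 0.19). The Timp2 call ended without any 1 of the 8 arrays (adjusted p = 0.0608 to 0.124), and the Timp3 call without AMH 24 h replicate 1, 2 or 4 or AMH 12 h replicate 1 or 2 (adjusted p = 0.0902 to 0.114). Of 17 junction genes, Cgn, the tight junction protein cingulin, rose by 0.98 (SE 0.25) (5.88% called higher), and the desmosomal Pkp2 and the N-cadherin gene Cdh2 were lower, with changes of -0.79 (SE 0.21) and -0.37 (SE 0.10) (11.8% called lower). Their calls ended without AMH 24 h replicate 1, 2 or 4 or AMH 12 h replicate 1 or 4 (adjusted p = 0.0513 to 0.0731), without AMH 24 h replicate 1, 2 or 3 or AMH 12 h replicate 1, 2 or 4 (adjusted p = 0.0554 to 0.0801), and without AMH 24 h replicate 2 or 4 or AMH 12 h replicate 1, 2 or 3 (adjusted p = 0.052 to 0.0962).

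Markers of other cell types gave few calls. Of 29 oocyte genes 0 were called by limma and 0 had an unadjusted p under 0.05, while 26 were below 0 and the median was -0.20. Without AMH 24 h replicate 1 the median was -0.53 with 28 below 0, and without AMH 24 h replicate 2 it was -0.02 with 17 below 0. It was -0.12 without AMH 24 h replicate 3 and -0.11 without AMH 12 h replicate 3. Gdf9, an oocyte growth factor, had signals of 880.5, 176, 215 and 255 at 24 h, against 373, 446, 496 and 395 at 12 h, and a change of -0.48 (SE 0.51, adjusted p = 0.629). Replicate 1 at 24 h was the highest of all 8 arrays, and the other 24 h arrays were the lowest. Bmp15, its partner, stood at -0.06 (SE 0.52, adjusted p = 0.963). The 16 endothelial genes had 0 calls by limma, 0 with an unadjusted p under 0.05, and a median of 0.02 (-0.23 without AMH 12 h replicate 1 to 0.20 without AMH 12 h replicate 3), with summed signals of 1326, 2319, 2349.8 and 1438 at 24 h, against 1216, 1379, 3379.8 and 2264 at 12 h. Tie1, an endothelial receptor, stood at 0.74 (SE 0.46, adjusted p = 0.361), and Cldn5 at 0.57 (SE 0.35, adjusted p = 0.346).

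The 15 immune genes had 1 call (6.67%, lower) and summed signals of 713, 2448, 1528 and 1982 at 24 h, against 1851, 1302, 1894 and 1581 at 12 h, lowest in AMH 24 h replicate 1. The gene was Csf1r, the receptor of macrophage colony-stimulating factor, with 57.0, 62.9, 98.7 and 83.6 at 24 h, against 348, 141, 520.4 and 359 at 12 h, and a change of -2.05 (SE 0.33, adjusted p = 0.00154). Ptprc, the common leukocyte marker, was not over the filter, and Cd74, of antigen-presenting cells, stood at -1.12 (SE 0.42, adjusted p = 0.111). Most of the list went the other way, with 10 of the 15 above 0 and a median of 0.18. That median ran from -0.01 (without AMH 12 h replicate 2) to 0.37 (without AMH 24 h replicate 1). Of 14 surface epithelium genes, the keratins Krt8 and Krt18 were called lower (14.3%). Krt8 signals were 748, 914, 1032 and 1048 at 24 h, against 1919, 1883, 2271 and 1989.9 at 12 h and Krt18 signals 714, 836, 918 and 1025 at 24 h, against 1632, 1447, 2474 and 2193 at 12 h, with no overlap, and their changes were -1.12 (SE 0.15, adjusted p = 0.000436) and -1.13 (SE 0.19, adjusted p = 0.00199). The other 12, Upk3b and Msln among them, were not called, and Upk3b had the highest change of the list, 1.28. Over the 14 genes, 6 were above 0 and 8 below, with a median of -0.18. That median was -0.42 without AMH 12 h replicate 2 and 0.01 without AMH 12 h replicate 4. The summed signal, which includes the bright Krt8 and Krt18, was 3133, 3937, 3989 and 4633 at 24 h, against 5352, 4639, 7565 and 7495 at 12 h.

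**Figure D4:**
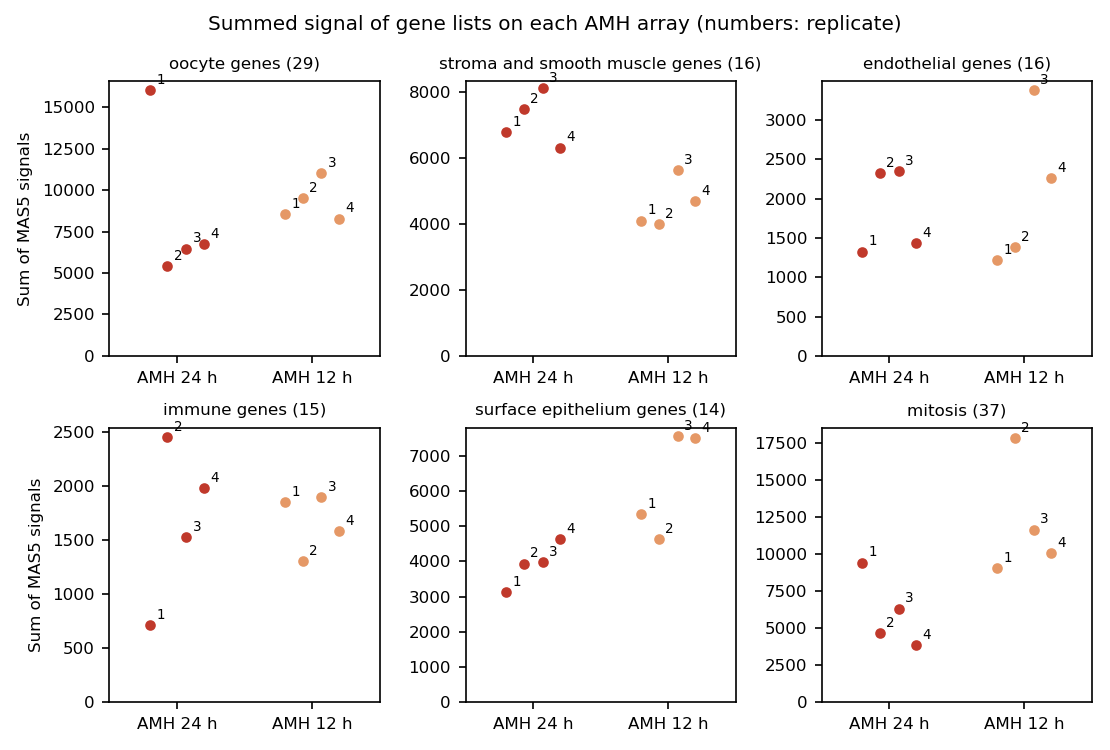
Summed MAS5 signals of 6 gene lists are plotted for each AMH array, 24 h left of 12 h, with the replicate number beside each point and the number of genes in brackets. Oocyte transcripts are highest in AMH 24 h replicate 1 (16026), and stroma sums at 24 h (6321 to 8124) lie above those at 12 h (3990 to 5637).

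Energy metabolism gave few calls. Glycolysis and hypoxia genes had a median of -0.26 with 23 of 27 below 0, yet the 1 called (3.70%) was higher. The median was -0.09 with 18 below 0 without AMH 24 h replicate 1, -0.09 with 15 below 0 without AMH 12 h replicate 2, and -0.39 with 25 below 0 without AMH 12 h replicate 3. It was Pfkm, the muscle form of phosphofructokinase, with 290.1, 244, 189 and 254 at 24 h, against 133, 167, 118 and 141 at 12 h, and a change of 0.79 (SE 0.16, adjusted p = 0.00533). Of 29 oxidative phosphorylation genes 1 was called (3.45%, lower), cytochrome c, Cycs, with -0.33 (SE 0.09), and their median was -0.02, which turned positive with quantile normalization (0.04) and cyclic loess (0.04) and ran from -0.06 (without AMH 24 h replicate 1) to 0.02 (without AMH 24 h replicate 3) with 1 array left out. The Cycs call ended without AMH 24 h replicate 2, 3 or 4 or AMH 12 h replicate 1, 2, 3 or 4 (adjusted p = 0.0536 to 0.103).

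The time change with AMH was set beside that of control follicles, which were cultured with the same gonadotropins and no AMH. These arrays are other ones, but each shared a pool with an AMH array, and the fit pooled the spread of all 16. In controls 2330 genes were called (19.1%), with 1212 higher (9.96%) and 1118 lower (9.19%). Of the 1008 genes called with AMH, 770 were also called in controls in the same direction, which is 76.4% of the AMH calls and 33.0% of the control calls, and 0 were called in the opposite one. The sign was the same for 1000 of the 1008, and no such count over all genes tested stands beside it. The 8 others were 3110021A11Rik, Apcdd1, Cd55, Cfap52, Efs, Timp3, Txndc2 and Zmynd15.

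Fewer calls with AMH do not by themselves show a smaller change. The difference between the time changes was therefore tested for each gene, with the 8 pairs of an AMH and a control array as a block. By limma 0 of 12172 genes passed (smallest adjusted p = 0.133), and 687 (5.64%) had an unadjusted p under 0.05. Of the genes that rose with AMH, Mybpc3 changed by 3.99 (SE 0.49, adjusted p = 0.0001) in controls, Slc26a7 by 3.14 (SE 0.42, adjusted p = 0.000223), and Foxl2 by 1.10 (SE 0.13, adjusted p = 0.0001). The differences, AMH minus control, were -0.33 (SE 0.71, adjusted p = 0.983) for Mybpc3, -0.17 (SE 0.44, adjusted p = 0.988) for Slc26a7 and -0.06 (SE 0.20, adjusted p = 0.994) for Foxl2. Among the ovulatory genes, control changes were -4.99 (SE 0.82, adjusted p = 0.000768) for Ptx3, -3.33 (SE 0.41, adjusted p = 0.000114) for Ptgs2 and -2.71 (SE 0.28, adjusted p = 2.5e-05) for Btc. Their differences were 1.23 (SE 0.83, adjusted p = 0.936), 1.26 (SE 0.59, adjusted p = 0.879) and 0.45 (SE 0.31, adjusted p = 0.936). The cumulus matrix list had a median of -0.53 with AMH and -1.44 in controls, the immediate-early list -0.72 and -0.94, the mitosis list -1.01 and -0.96, and the granulosa list 0.73 and 0.86.

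Of the genes with the smallest p for the difference, Igfbp5, a binding protein of insulin-like growth factors, came first. With AMH its signals were 4754, 3800.4, 3213 and 3603 at 24 h, against 1157, 1828, 1030.3 and 1769 at 12 h, apart between the times, with a change of 1.44 (SE 0.18, adjusted p = 0.00025). In controls they were 2825, 3196, 2797 and 3366 at 24 h, against 3311, 3367, 2382 and 2997 at 12 h, and the change was 0.02 (SE 0.18, adjusted p = 0.943). The difference was 1.42 (SE 0.19, adjusted p = 0.133), and the AMH 12 h arrays were the 4 lowest of the 16. Dpt changed by 1.06 (SE 0.29, adjusted p = 0.0170) in controls, with a difference of 1.93 (SE 0.32, adjusted p = 0.210).

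Gadd45a, a stress gene, had 264, 786, 354 and 530.2 at 24 h, against 914, 601, 389.9 and 415 at 12 h with AMH and 642, 1146, 896 and 535 at 24 h, against 270.0, 278, 187 and 265 at 12 h in controls. The change was -0.30 (SE 0.32, adjusted p = 0.641) with AMH and 1.64 (SE 0.32, adjusted p = 0.00279) in controls, and the difference was -1.93 (SE 0.32, adjusted p = 0.210). Slco4a1, a transporter of organic anions, stood at 0.85 with AMH and -1.18 in controls, a difference of 2.04 (SE 0.33, adjusted p = 0.210). Cela3b, a pancreatic-type elastase gene, stood at 0.11 with AMH and 1.30 in controls, a difference of -1.19 (SE 0.17, adjusted p = 0.133). Cyp17a1, at 0.63 (SE 0.44, adjusted p = 0.341) in controls, had a difference of 1.98 (SE 0.45, adjusted p = 0.323), Inhba of 1.33 (SE 0.37, adjusted p = 0.533) and Spon1 of 1.15 (SE 0.23, adjusted p = 0.319). None of these passed, so no time change was shown to differ with AMH.

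**Figure D5:**
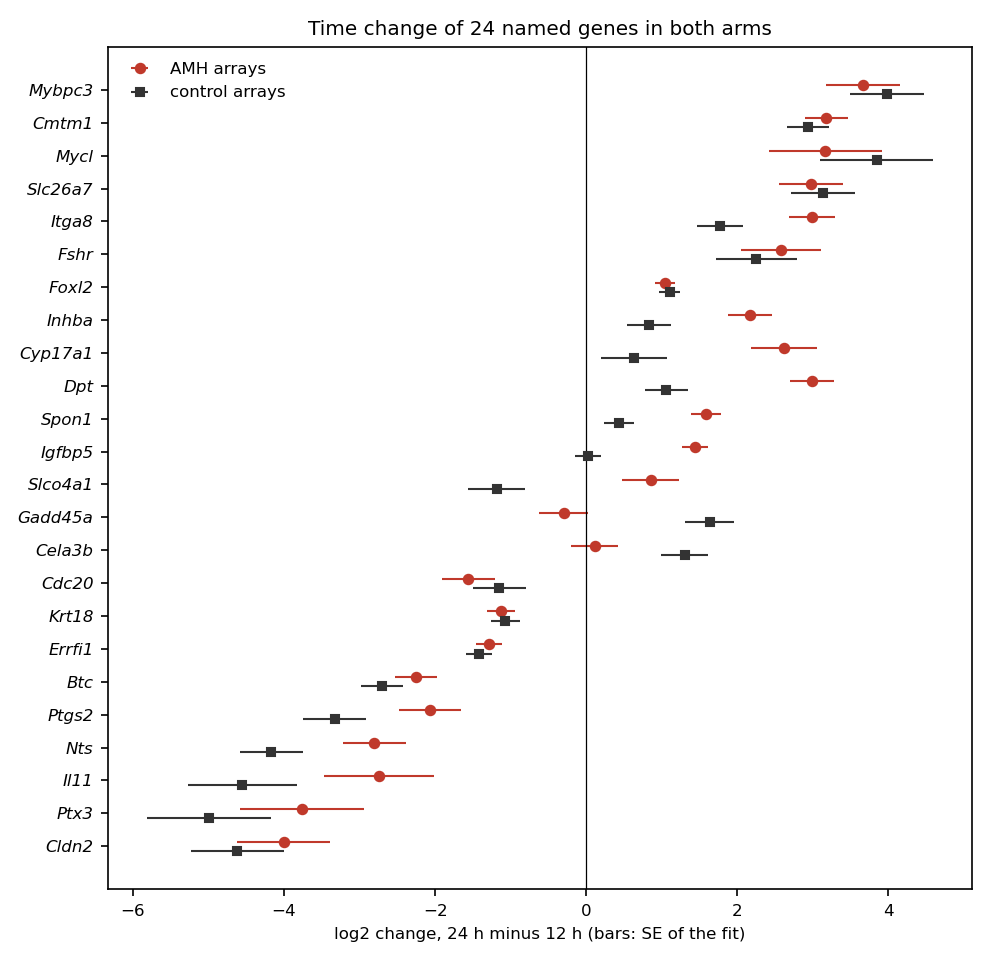
Log2 changes, 24 h minus 12 h, of 24 named genes are plotted with the SE of the fit, for AMH arrays (red circles) and control arrays (black squares). Mybpc3 stands at 3.66 with AMH and 3.99 in controls, and Krt18 at -1.13 and -1.07, while Igfbp5 stands at 1.44 with AMH and 0.02 in controls, a difference that did not pass over all genes.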

How the data were processed

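RNA of the 16 samples was hybridised to Affymetrix mouse arrays after amplification of 5 ng of total RNA, per the labels' protocols. The deposited tables hold 1 linear signal intensity for each probe set. Per the submitters' processing notes the authors computed it with MAS5, whose version is not given in the sources used here. Every array shared a trimmed mean of about 150 (2% trimmed at each end), so a scaling had been applied before deposit, and no further one was made. Detection calls were not used here.

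From 45101 probe sets, 64 controls were removed, and 34945 had 1 gene symbol in the platform annotation, 932 several and 9160 none. Genes were named only from the 34945. The scale was log2(signal + 1.46), with an offset at the 10th percentile of all values. Probe sets with a mean over all 16 arrays at or above the 40th percentile (log2 4.18, signal 16.6) passed, and each of 12172 genes was taken from its brightest probe set by that mean. Changes came from 1 model of 4 group means over 16 arrays (12 residual degrees of freedom) in limma 3.58.1 under R 4.3.3, using eBayes with a variance trend and Benjamini-Hochberg adjustment at a threshold of 0.05. The difference between the AMH and control time changes was fitted with the 8 pairs of an AMH and a control array as a block. Scripts were tested on simulated data. Single values per array were compared by exact permutation with scipy 1.17.1, and plots made with matplotlib 3.10.9 under Python 3.11.15.

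The comparison, the lists and their members were chosen with earlier results of these data known, so lists are described by counts and medians without a test. Named were the 15 largest rises and 15 largest falls among called genes whose groups did not overlap, up to 4 called members per list by smallest p (members short of the threshold to make up 2), 25 fixed genes of follicle biology, and the 5 genes with the smallest p for the difference between arms. Atf4, Atf5, Ereg, Fos, Gclm, Gsr, Has2, Hmga2, Hspa5, Kif20a, Kif2c, Msln, Mthfd2, Nqo1, Nusap1, Ptch1, Sult1e1, Txn1, Ube2c, Upk3b and the genes of opposite sign in the arms were named after their values were seen. Promoter windows were matched by symbol, for 9849 of the tested genes, and genes with several windows counted as holding an element if any window did. Alternatives were other offsets, filters, scalings, probe set rules, weights, blocks, an oocyte covariate and each array left out; every probe set on its own was added after the data were seen.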

Additional observations from a re-analysis of the deposited data

Results flagged for a closer look

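Within the groups of 4 AMH arrays, 17 of 254 sets of 4 values had an array far from the others by Dixon's test at its 95% level. Chance gives about 1 in 20 such sets, or 12.7 here, so the number is near what chance gives. Of the AMH 24 h arrays, replicate 1 was high for the oocyte kinase gene Mos (152, against 26 to 28.5 on the others) and for Id3 (1632, against 1117 to 1170), and low for Star (573, against 1684 to 1955) and Id2 (421, against 612 to 636). Replicate 2 was low for Cdh2 (674, against 775 to 785), and replicate 3 was high for Errfi1 (642, against 585 to 592) and low for Timp3 (363, against 486 to 489.5). AMH 24 h replicate 4 was low for Dcn (698, against 1357 to 1492) and Rrp12 (44.9, against 57.1 to 57.6), and high for Spon1 (430.1, against 344 to 357).

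Of the AMH 12 h arrays, replicate 3 was high for Asns (953, against 616 to 628), Csn3 (106, against 66.4 to 69.99) and Rassf2 (27.9, against 17.2 to 18.2), and low for Id2 (212, against 288 to 303) and Oxtr (14.8, against 17.2 to 17.6). Replicate 2 was high for Cdc25c (264, against 91.8 to 94.8), and replicate 1 was low for Ptgs2 (178, against 255 to 273). Calls that ended when such an array was left out are given with the genes concerned.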

How the results depend on the processing

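Signals near the floor limit what the dimmest genes can show, and with 4 arrays a group most counts moved when 1 array was left out. The number of genes called between 24 h and 12 h with AMH stayed within 1.5 times of 1008 under every alternative run except array weights, which gave 1857 (921 higher, 936 lower), and the fits without AMH 24 h replicate 2 and without AMH 12 h replicate 3 or 4. Over the 8 fits that each left out 1 array it ranged from 516 to 948, with 296 to 483 higher and 220 to 465 lower. With only the 8 AMH arrays in the fit it was 772 (412 higher, 360 lower). In controls array weights gave 3945 calls. For the difference between the arms, quantile normalization called 1 gene (Igfbp5), the oocyte covariate 2 (Igfbp5 and Gadd45a), array weights 21, and the fits without a pair 0 to 1 (Slco4a1 without 24 h pair 2, Itga8 without 12 h pair 4). The causes were not tested.

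The labels give the groups the same replicate numbers but do not say that a number links 24 h to 12 h. With the replicate block 1235 genes were called (647 higher, 588 lower), 952 of them among the 1008, while calls of Kif2c (adjusted p = 0.0538), Kif20a (0.0559), Apcdd1 (0.0613) and Zmynd15 (0.052) were lost among the genes in the text. For replicates 1 to 4 in order, the correlation of deviations between 24 h and 12 h was 0.07, 0.04, 0.25 and 0.23. No values for arrays of different numbers stand beside these, so they cannot decide whether the numbers are pairs. The times were compared unpaired because the labels do not link them. Without the block for the difference between arms, 0 genes were called.

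Signs turned for 4 named genes, none of them called. Bmp15 was 0.17 with the oocyte covariate and -0.34 to 0.19 with 1 array left out, Cela3b -0.15 to 0.35 and Star -0.34 to 0.37 with 1 array left out, Star 0.0201 with cyclic loess, and Gadd45a 0.0402 with array weights. The single values were 0.09 for Bmp15 without AMH 12 h replicate 3, -0.09 for Cela3b without AMH 24 h replicate 4, and 0.14 and 0.18 for Star without AMH 12 h replicates 3 and 4. Of the 95 called genes that the naming rules picked, 68 were called in all 8 fits with 1 array left out, beside 422 of all 1008 called genes. Most of the 95 were picked for large changes or small p. They do not include genes such as Has2, Ereg and Hmga2, named only after their values were seen. List medians near 0 (proteases, junctions, oxidative phosphorylation, matrix, endothelium, cAMP signalling and luteal genes) changed sign under some settings, as did the red blood cell, oocyte, immune and surface epithelium medians in 1 setting each.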

Other observations

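Of the genes called with time under AMH, 8 had a value of the opposite sign in controls. Cd55, a protein that protects cells from complement, stood at 0.71 with AMH and -0.39 in controls, and Zmynd15 at 0.98 and -0.24. Efs, a docking protein of SRC-family kinases, stood at -1.13 with AMH and 0.28 in controls, Apcdd1, an inhibitor of WNT signalling, at -0.86 and 0.21, and Cfap52, a cilia and flagella gene, at -1.14 and 0.26. The test of the difference between the arms gave an adjusted p of 0.261 for Efs, 0.404 for Cd55 and 0.531 to 0.875 for the other 6, so none was shown to differ.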
